A study of Mus musculus with 8 samples.

Results

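Solute carrier genes were taken as the probes whose identifier carries the NCBI Gene ID of a mouse gene with a symbol that starts with Slc and a digit, or with Slco, leaving out Slc10a1 and Slc37a4. This gave 148 probes for 126 genes, of 24048 probes in all, of which 8893 could be named, for 7413 genes. One probe was present for 107 carrier genes, 2 probes for 16 and 3 probes for 3. The livers were those of 8 males, 23 weeks old, and each had its own bead array: 4 were Gpx3 transgenic and 4 wildtype. The wildtype animals were of B6/DBA background. All had received chow with 4% fat to 11 weeks of age and chow with 6% fat from then on. The background strain of the transgenic animals and the promoter and founder line of the transgene are not given in the sources used here. The Gpx3 gene product is an extracellular glutathione peroxidase with selenocysteine in its active site. The group labels could not be checked against the transgene, since none of the named probes is a Gpx3 probe.

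Solute carriers are membrane proteins that move ions, nutrients, metabolites and drugs across the plasma membrane and the membranes of organelles, by facilitated diffusion or coupled to ion gradients. In liver, carriers of the sinusoidal membrane take amino acids, sugars, bile acids and organic anions from the blood. Those of the Slc25 family exchange nucleotides, amino acids, dicarboxylates and cofactors across the inner mitochondrial membrane. Carriers of the Slc35 family bring nucleotide sugars into the Golgi apparatus and the endoplasmic reticulum for glycosylation. The symbol alone does not make a gene a carrier: Slc9a3r1 encodes a scaffold protein and Slc7a6os a gene on the opposite strand of Slc7a6.

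Values are intensities from which background had been subtracted, so that a signal near 0 is a signal not distinguished from background. Between 33.1% and 35.3% of an array's values were below 0, and the median of an array was 11.0 to 14.2 units. The number of animals, 4 per group, limited the precision of every comparison. The liver label was checked against markers: Apoa1, an apolipoprotein of hepatocytes, and Serpinc1, antithrombin, were above 16 units on all 8 arrays, and they were the only 2 of 8 listed hepatocyte markers with a named probe. Apoa1 read 33749 to 37065 units, and Serpinc1 only 58.5 to 129 units. Erythroid, endothelial, stellate, macrophage and cholangiocyte markers were also detected, with 1 to 3 genes each above 16 units on every array. Krt19, a keratin of bile duct cells, lay at or below 16 on every array. Of the listed lymphocyte and antigen-presenting markers, Cd74 and the brighter probe of H2-Ab1 were above 16 on every array. Cd3e, also listed there, read 3.90 to 26.4 units. The summed erythroid signal, of Hba-a1 and Hbb-b1, was 9105 to 10339 units in transgenic and 10864 to 23811 units in wildtype livers, without overlap. Most of this sum came from Hba-a1. Hbb-b1 overlapped between groups, at 77.5 to 85.3 units in transgenic and 83.6 to 180 units in wildtype livers. The summed endothelial signal was 216 to 370 units in transgenic and 336 to 477 units in wildtype livers. In whole liver, fewer cells of a type and less RNA per cell cannot be told apart. Transgenic animal 2 had the lowest value of the 8 animals at 16 of 57 carrier probes and the highest at 2. Its median deviation from the probe means was -0.08 on the log2 scale for these carrier probes and -0.04 for all 8890 probes above 16 on every array.

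Signals above 16 units on all 8 arrays were found for 54 of 126 carrier genes, at 57 of 148 probes (38.5%). Over all probes of the array the share was 37.0%. The level of 16 units is the floor used in the statistical comparison. At a limit that mirrored the 1st percentile of each array about 0, which lay at 24.0 to 35.4 units, 46 genes remained, and the 8 genes that then dropped out were Slc18a2, Slc22a30, Slc25a27, Slc31a2, Slc35f5, Slc39a3, Slc5a3 and Slc5a9. A further 30 genes were above 16 units on some arrays, and 42 genes lay at or below it on every array. Brightness depends on the probe's sequence as well as on the transcript, so signals are compared between animals and not between genes. A probe near background does not show that its gene is silent.

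**Figure D1:**
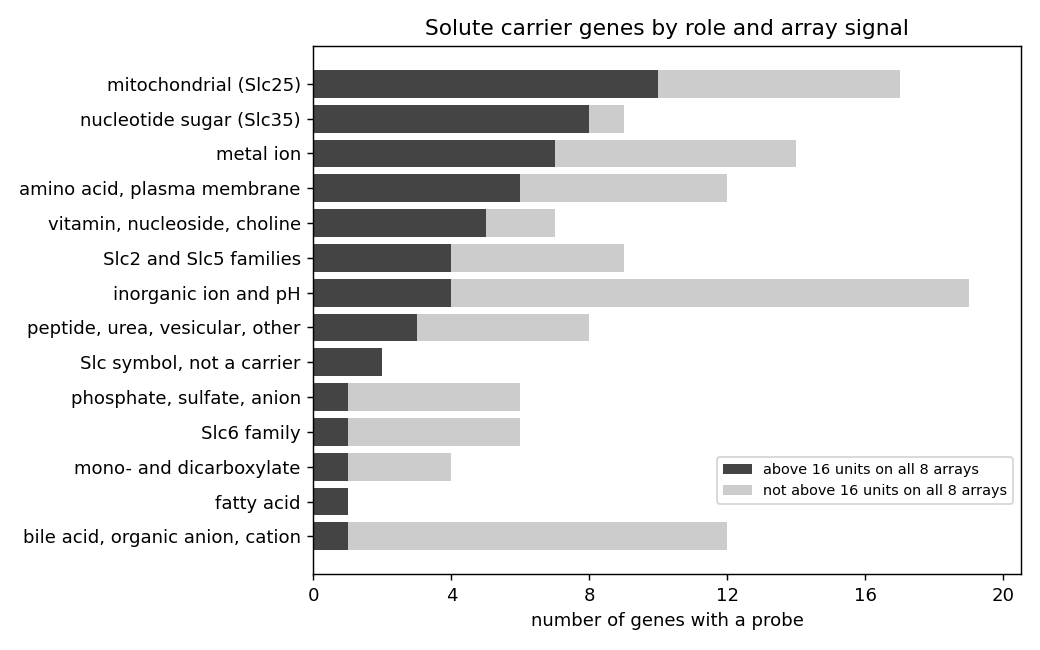
Number of solute carrier genes with a probe, by role of the family, split into genes with a signal above 16 units on all 8 arrays (dark) and the other genes (light). Mitochondrial Slc25 carriers had 10 of 17 genes above that level and Slc35 carriers 8 of 9, while bile acid, organic anion and cation carriers had 1 of 12.

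Most mitochondrial Slc25 carriers with a probe gave a signal, 10 of 17 genes. Slc25a5, the ADP/ATP translocase of many tissues, read 9344, 8433, 8882 and 8768 units in transgenic animals 1 to 4 and 8932.5, 8593, 8619 and 8330.3 units in wildtype animals 1 to 4. Slc25a39, which brings glutathione into mitochondria, read 7279.8, 6625, 7285 and 6999 units in transgenic animals 1 to 4 and 7695, 7504, 7317 and 6665.5 units in wildtype animals 1 to 4. These were the carrier probes with the narrowest span over the 8 animals among those with a mean over 100 units, with a highest value 1.12 times and 1.16 times the lowest. Slc25a10, the dicarboxylate carrier, read 2115 to 3491 units, with a coefficient of variation of 24.4% among transgenic and 4.48% among wildtype animals. Slc25a44, a carrier of branched-chain amino acids, read 1299 to 1609.6 units, and Slc25a45, another member of the family, 928 to 1202 units. Slc25a25, a calcium-sensitive carrier of ATP-Mg and phosphate, spanned 489 to 907 units, with the lowest and the highest value both in transgenic animals. Slc25a26, which carries S-adenosylmethionine, read 241.5 to 289 units.

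Amino acid carriers of the plasma membrane families Slc1, Slc7, Slc36 and Slc38 gave a signal at 6 of 12 genes. Slc38a3, the system N carrier of glutamine, read 7120.1, 6939, 7074 and 5524 units in transgenic animals 1 to 4 and 6849.9, 5830.1, 6292 and 6347 units in wildtype animals 1 to 4. Transgenic animals 1 to 3 lay above all wildtype animals and transgenic animal 4 below all of them. Slc38a4, a carrier of neutral amino acids, read 2703.5 to 4489.6 units at the brighter of its 2 probes. Slc7a2, a carrier of arginine and other cationic amino acids, read 301 to 526 units, and Slc1a2, a sodium-coupled glutamate carrier, 184 to 417 units. Slc36a4 read 51.3 to 82.1 units and Slc7a4 36.1 to 78.4 units. Slc7a11, the cystine carrier that supplies cysteine for glutathione, read 3.40 to 31.2 units, above 16 on 3 of 8 arrays. The glycine transporter Slc6a9 was the 1 gene of 6 in the Slc6 family with a signal on every array, at 1230.4 to 1669.8 units, and Slc16a10, which carries aromatic amino acids, the 1 of 4 mono- and dicarboxylate family genes, at 97.2 to 140.1 units.

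Slc27a2, an acyl-CoA synthetase and transport protein for very long-chain fatty acids, read 11989, 10563, 13004 and 13776 units in transgenic animals 1 to 4 and 12852, 10263, 14171 and 11732 units in wildtype animals 1 to 4, and the groups overlapped over nearly their whole range. Slc17a2, a member of the family of sodium-dependent phosphate cotransporters, read 3033.5 to 3974 units at one probe and 1519 to 2088 units at the other. The remaining 5 genes among phosphate, sulfate and anion carriers did not give a signal on every array. Slc66a2, a PQ-loop membrane protein, read 4264.5 to 5965 units, and Slc66a1, which exports cationic amino acids from lysosomes, 218 to 411 units. Slc9a3r1, the scaffold protein, read 1501 to 2319 units.

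Of 9 Slc35 genes 8 gave a signal on every array, among them Slc35e3 (1213 to 1744 units), Slc35d1 (518 to 752 units), which brings UDP-glucuronic acid into the endoplasmic reticulum, and Slc35c2 (483 to 683 units). Metal ion carriers gave one at 7 of 14 genes. The zinc carriers Slc39a11 and Slc39a1 read 664 to 796 and 576 to 713 units, Slc30a6, a zinc carrier of the Golgi apparatus, 186 to 313 units, and Slc39a14, which takes up zinc, iron and manganese, 59.1 to 73.6 units. Slc11a1, a metal ion carrier of macrophage phagosomes, read 351 to 468 units at 1 of its 3 probes, and the other two did not give a signal on every array. The macrophage marker C1qa read 262 to 512 units in the same livers, and Cd68, the other with a named probe, -4.40 to 26.9 units. Carriers of inorganic ions gave a signal at 4 of 19 genes, with the anion exchanger Slc4a2 at 434 to 599.6 units and the bicarbonate carrier Slc4a7 at 230.5 to 304 units. Vitamin, nucleoside and choline carriers gave one at 5 of 7 genes, among them the choline carrier Slc44a1 (188.5 to 324 units), the reduced folate carrier Slc19a1 (143 to 274.5 units) and the riboflavin carrier Slc52a2 (149 to 214 units). The Slc2 and Slc5 families, which hold sugar and inositol carriers and also the iodide carrier Slc5a5 and the monocarboxylate carrier Slc5a8, gave one at 4 of 9 genes. Of these Slc2a8, a glucose carrier of intracellular membranes, had a mean over 100 units, at 147 to 191 units. Slc2a13, a carrier of myo-inositol, read 35.1 to 61.6 units.

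Other genes gave a signal on every array as well. Slc9a8, a sodium proton exchanger, read 47.2 to 66.2 units. Slc35a4 read 290.0 to 369 units, Slc35e1 102 to 159 units, and Slc35a5 37.9 to 49.8 units at the brighter of its probes. The choline carrier family member Slc44a2 read 129.5 to 175.5 units at its brighter probe and 1.70 to 29.4 units at the dimmer one, which was above 16 on 2 of 8 arrays. Slc28a2, a sodium-coupled nucleoside carrier, read 28.6 to 78.0 units. Slc28a2, Slc11a1 and Slc4a2 were the 3 genes with a signal on every array among the 7, of 16 carriers listed for cells other than hepatocytes, that had a named probe. Whether hepatocytes or other cells gave these signals was not tested. Of genes above 16 units on some arrays, Slc4a3, an anion exchanger, and Slc25a31, an ADP/ATP carrier of testis, exceeded it on 7 arrays, with highest values of 39.4 and 38.2 units. Slc2a5, the fructose carrier, and Slc5a5 exceeded it on 6 arrays, with highest values of 36.7 and 26.6 units. Slc15a1, the intestinal peptide carrier, exceeded it on 5 arrays (up to 29.7 units), and Slc5a1, a sodium-coupled glucose carrier, on 2 (-3.60 to 32.4 units). Such values lie on both sides of the floor and do not tell a weak signal from background.

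**Figure D2:**
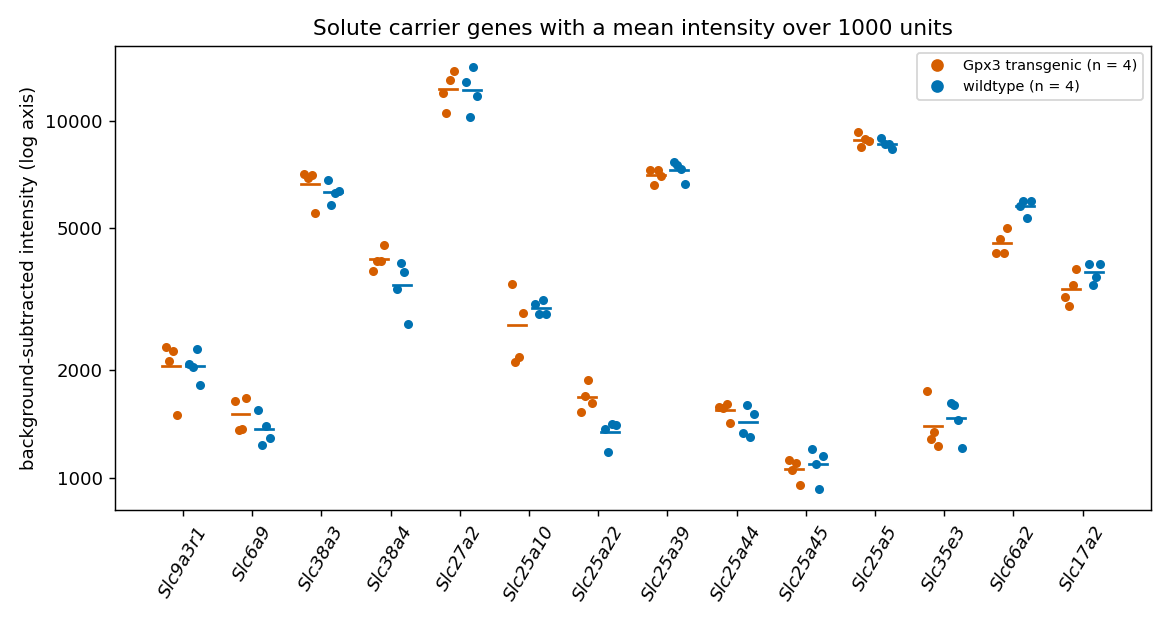
Intensity in each animal (log axis) of the 14 genes whose probe of highest mean exceeded 1000 units, grouped by role from left to right. Points are animals, lines are group means, and levels of different genes are not comparable. The groups did not overlap at Slc66a2 and Slc25a22 and overlapped at the other 12 genes.

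Bile acid, organic anion and cation carriers gave a signal on every array at 1 of 12 genes, Slc22a30, at 21.4 to 48.9 units, close to the floor. Slco1a1, an organic anion transporter of the hepatocyte sinusoidal membrane, read -0.10 to 14.7 units, at background in all 8 animals. Slc33a1, which brings acetyl-CoA into the endoplasmic reticulum, read -23.4 to 4.20 units, and Slc39a8, a zinc and manganese carrier, -26.2 to -5.70 units. These were the 3 genes without a signal on every array among the 17, of 57 listed hepatocyte carriers, that had a named probe. Carriers known from other organs also lay at background. Slc22a6, an organic anion transporter of kidney, read -31.9 to -12.8 units, Slc5a2, a glucose carrier of kidney, -28.2 to 2.80 units, Slc30a8, a zinc carrier of pancreatic islets, -30.1 to -9.10 units, and Slc17a7, a vesicular glutamate carrier of neurons, -7.10 to 14.6 units. These 4 were singled out after their values were seen. The urea carrier Slc14a1, which is abundant in erythrocytes, lay at or below 3.40 units at both probes, in livers where the globin Hba-a1 read 9019.5 to 23631 units.

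Upstream sequences are shown for 4 carriers with means over 1000 units, because they differ widely in CpG content and the group comparison returns to each of them. They are the 250 bases before the first listed RefSeq start in assembly GRCm38.p6, written 5′ to 3′ on the gene's strand, with CG dinucleotides in capitals. Slc25a39 is at chr11:102407518-102407767 (minus strand), Slc17a2 at chr13:23806743-23806992 (plus strand), Slc25a22 at chr7:141437875-141438124 (minus strand) and Slc38a4 at chr15:97055957-97056206 (minus strand).
Slc25a39: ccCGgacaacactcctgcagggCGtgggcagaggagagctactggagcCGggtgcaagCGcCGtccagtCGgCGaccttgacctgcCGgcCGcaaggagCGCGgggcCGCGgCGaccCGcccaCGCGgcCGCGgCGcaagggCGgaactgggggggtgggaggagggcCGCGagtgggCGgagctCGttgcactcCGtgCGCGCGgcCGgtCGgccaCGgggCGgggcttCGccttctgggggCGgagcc
Slc17a2: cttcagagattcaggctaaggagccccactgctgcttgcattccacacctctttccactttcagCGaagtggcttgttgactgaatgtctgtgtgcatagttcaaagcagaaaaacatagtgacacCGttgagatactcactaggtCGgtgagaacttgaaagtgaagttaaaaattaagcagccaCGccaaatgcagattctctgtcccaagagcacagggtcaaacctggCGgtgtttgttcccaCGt
Slc25a22: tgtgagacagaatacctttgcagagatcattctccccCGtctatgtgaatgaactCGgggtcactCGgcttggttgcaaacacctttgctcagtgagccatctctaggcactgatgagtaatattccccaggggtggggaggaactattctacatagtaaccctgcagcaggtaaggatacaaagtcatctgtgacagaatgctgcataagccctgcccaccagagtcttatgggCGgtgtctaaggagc
Slc38a4: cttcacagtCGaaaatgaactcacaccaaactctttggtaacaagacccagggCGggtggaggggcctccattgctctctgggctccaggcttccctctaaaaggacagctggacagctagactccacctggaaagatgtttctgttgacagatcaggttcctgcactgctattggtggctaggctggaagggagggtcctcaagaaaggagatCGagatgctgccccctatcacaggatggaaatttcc
CG occurred 35 times upstream of Slc25a39, 6 times upstream of Slc17a2, 4 times upstream of Slc25a22 and 3 times upstream of Slc38a4. Such a sequence was found for 92 of 126 carrier genes. In the 40 of these with a signal on every array the median was 15 CG and 61.4% G or C, in the other 52 it was 11 CG and 55.8%, and over 27025 genes with such a sequence it was 6 CG and 52.0%. Of the 14 genes with a mean over 1000 units, the class of the 4 sequences shown, 11 had such a sequence, Slc9a3r1 among them. In these 11 the median was 9 CG and 60.4%, so the CG count was lower there than in both larger sets of carriers. The motif GGGCGG, on either strand, was in 29 of the 40 sequences (72.5%), in 22 of the 52 (42.3%) and in 32.9% of all genes. CCAAT on either strand was in 32.5%, 36.5% and 34.5%, and TATAAA on the gene's strand in 5.0%, 7.69% and 8.12%. These shares describe the sequences, were not tested, and depend on which start is listed first.

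The comparison asked how expression differed between livers of Gpx3 transgenic and wildtype mice. No solute carrier passed it. The smallest p belonged to Slc66a2, at a log2 difference (transgenic minus wildtype) of -0.34. Slc27a2, Slc25a5 and Slc25a39, 3 carriers of strong signal, had log2 differences of 0.01, 0.04 and -0.05. Unadjusted limma p-values under 0.05 were found at 8 probes. Mean signals in transgenic livers were higher at those of Slc25a22, Slc19a1, Slc35e2 and 1 of 2 probes of Slc38a4. They were lower at those of Slc66a2, Slc31a2 and 1 of 2 probes each of Slc17a2 and Slc7a2. The comparison was made with limma on log2 intensities, with values below 16 set to 16, and p-values were adjusted over all tested probes. After removal of probes at the floor, 93 of the 148 probes remained, for 84 of 126 genes, and 36 of the 93 were not above 16 on every array. Of the 93 probes 0 had an adjusted p under 0.05 in limma, as for 0 of all 14759 probes (0%), and the smallest adjusted p was 0.523. An unadjusted p under 0.05 was found at 8 of 93 probes (8.60%), against 6.82% of all tested probes. All 8 were among the 57 probes above 16 on every array (14.0%), where the share over all 8890 such probes was 8.90%. Of these 8 probes 4 were higher and 4 lower in transgenic livers, with 3.23% higher and 3.59% lower over all probes. Without transgenic animal 3 the count was 5, with 2 higher and 3 lower.

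Over the 93 probes, 39 log2 differences (transgenic minus wildtype) were positive and 54 negative, and their median was -0.02, between quartiles at -0.15 and 0.11. For all 14759 tested probes the median was -0.02 and the quartiles lay at -0.14 and 0.11. At 12 of the 93 probes, 3 positive and 9 negative, all arrays of one group lay at the floor, so that the filter fixed the direction. Of the 57 probes above 16 on every array 25 were positive and 32 negative, with a median of -0.02. After quantile normalization, and also with array medians aligned, these divided into 32 positive and 25 negative, and after cyclic loess into 31 and 26, with medians of 0.01 to 0.02. For the 41 probes above 16 on every array with a mean over 100 units, the 95% interval of the log2 difference reached a median of 0.27 to either side. Its half-width ranged from 0.15, for Slc25a5, to 0.59, for Slc1a2. All 41 intervals lay within 1 log2 unit of 0. The groups did not overlap at 5 of 93 probes (5.38%), against 3.56% of all tested probes. These 5 were probes of Slc66a2, Slc7a2, Slc25a22, Slc35e2 and Slc19a1. Groups of 4 animals that do not overlap always give p = 0.0286 in an exact two-sided permutation test, the lowest it can reach. That p therefore adds nothing to the count of probes without overlap.

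**Figure D3:**
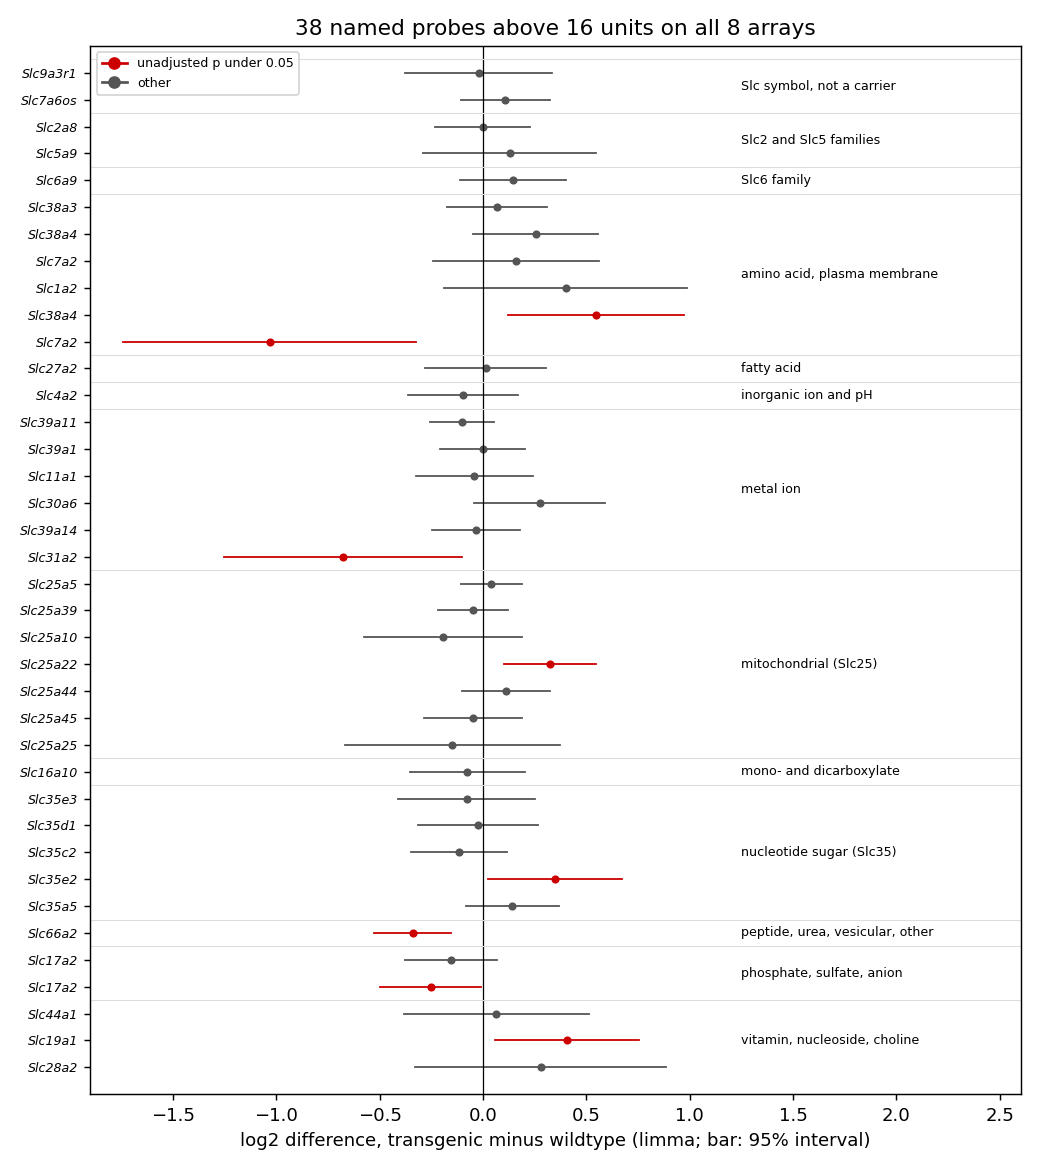
Log2 difference, transgenic minus wildtype, with its 95% interval from limma for the 38 probes above 16 units on all 8 arrays that the rule for named genes picked, grouped by role. The 8 probes with an unadjusted p under 0.05 are in red, and none had an adjusted p under 0.05. The intervals of the other 30 probes include 0.

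Slc66a2 read 4264.5, 4659, 4267 and 5027 units in transgenic animals 1 to 4 and 5760.4, 5948, 5362 and 5965 units in wildtype animals 1 to 4. The highest transgenic value lay below the lowest wildtype value. Means were 4554 ± 365 units among transgenic and 5759 ± 281 units among wildtype animals (± SD, 4 per group), and the log2 difference was -0.34 ± 0.08 (SE). Its 95% interval was -0.53 to -0.15, and limma's adjusted p was 0.523. Leaving out 1 animal at a time gave unadjusted limma p between 0.0009 and 0.00689. Its relative Slc66a1 had means of 300.3 ± 58.3 units among transgenic and 297 ± 81.1 units among wildtype animals (± SD, 4 per group), and the groups overlapped. The erythroid markers had lower mean signals in transgenic livers, with Hba-a1 at a log2 difference of -0.85 (limma adjusted p = 0.592). So did the endothelial marker Emcn, at -0.48 (limma adjusted p = 0.697), and Lrat, which stores vitamin A in stellate cells, at -0.46 (limma adjusted p = 0.592). Lrat read 228 to 323 units in transgenic and 363 to 395 units in wildtype livers, without overlap, and the summed signal of the 4 stellate markers was 2038 to 2549 and 2467 to 2597 units. The other stellate markers did not all share this direction. Timp2 had a log2 difference of -0.39, Reln, at 1505 to 1998 units, -0.03, and Col1a2, near the floor, 0.07. The part of these markers in the carrier differences was not tested.

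Slc25a22, a mitochondrial carrier of glutamate, read 1527, 1694.5, 1875 and 1617 units in transgenic animals 1 to 4 and 1372, 1176, 1409 and 1405 units in wildtype animals 1 to 4. All 4 transgenic values lay above all 4 wildtype values. Means were 1678 ± 148 units among transgenic and 1340.5 ± 111 units among wildtype animals (± SD, 4 per group), and the log2 difference was 0.32 ± 0.10 (SE). Its 95% interval was 0.10 to 0.55, and limma's adjusted p was 0.606. Among the other mitochondrial carriers the log2 difference was 0.04 for Slc25a5, -0.05 for Slc25a39, -0.19 for Slc25a10, 0.11 for Slc25a44, -0.05 for Slc25a45 and -0.15 for Slc25a25. The 95% interval for Slc25a39, the glutathione carrier, was -0.22 to 0.12. Of the 10 probes of the family above 16 on every array 4 had positive and 6 negative differences, and 5 each after quantile normalization.

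Slc38a4 was read by 2 probes. The brighter one gave 3804, 4038, 4041 and 4489.6 units in transgenic animals 1 to 4 and 3378, 4002, 3773 and 2703.5 units in wildtype animals 1 to 4, a log2 difference of 0.25 ± 0.13 (SE), and limma's adjusted p was 0.776. The dimmer one gave 169, 221, 223 and 206 units in transgenic animals 1 to 4 and 133, 175, 160.1 and 101 units in wildtype animals 1 to 4, a log2 difference of 0.55 ± 0.18 (SE), for which it was 0.636. With normexp background correction the latter difference was 0.36. At both probes wildtype animal 4 was lowest and the transgenic mean was higher, while the groups overlapped. The exact two-sided permutation p was 0.0571 at each. Slc38a3 differed by 0.07 on the log2 scale, with a 95% interval of -0.17 to 0.31, and Slc1a2 by 0.40, with -0.19 to 0.99.

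The probes of Slc7a2 gave log2 differences of opposite sign. The brighter one had means of 444 ± 36.4 units among transgenic and 406 ± 99.1 units among wildtype animals (± SD, 4 per group), a log2 difference of 0.16 ± 0.17 (SE). The dimmer one read 46.5, 39.8, 67.8 and 102.5 units in transgenic animals 1 to 4 and 123, 109, 164 and 103 units in wildtype animals 1 to 4, and transgenic animal 4 and wildtype animal 4 differed by less than 1 unit at the border of the groups. Its log2 difference was -1.03 ± 0.30 (SE), with a 95% interval of -1.74 to -0.32, and limma's adjusted p was 0.606. When background was corrected by normexp, at an offset of 50, the difference was -0.50. Whether the probes read different transcripts of Slc7a2 was not tested. Of the 8 probes above 16 on every array in the plasma membrane families Slc1, Slc7, Slc36 and Slc38, which come from 6 genes, 6 had higher and 2 lower means in transgenic livers. Under the 4 other scalings the split was 6 and 2 or 7 and 1. Amino acid carriers of other families are not in this count.

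**Figure D4:**
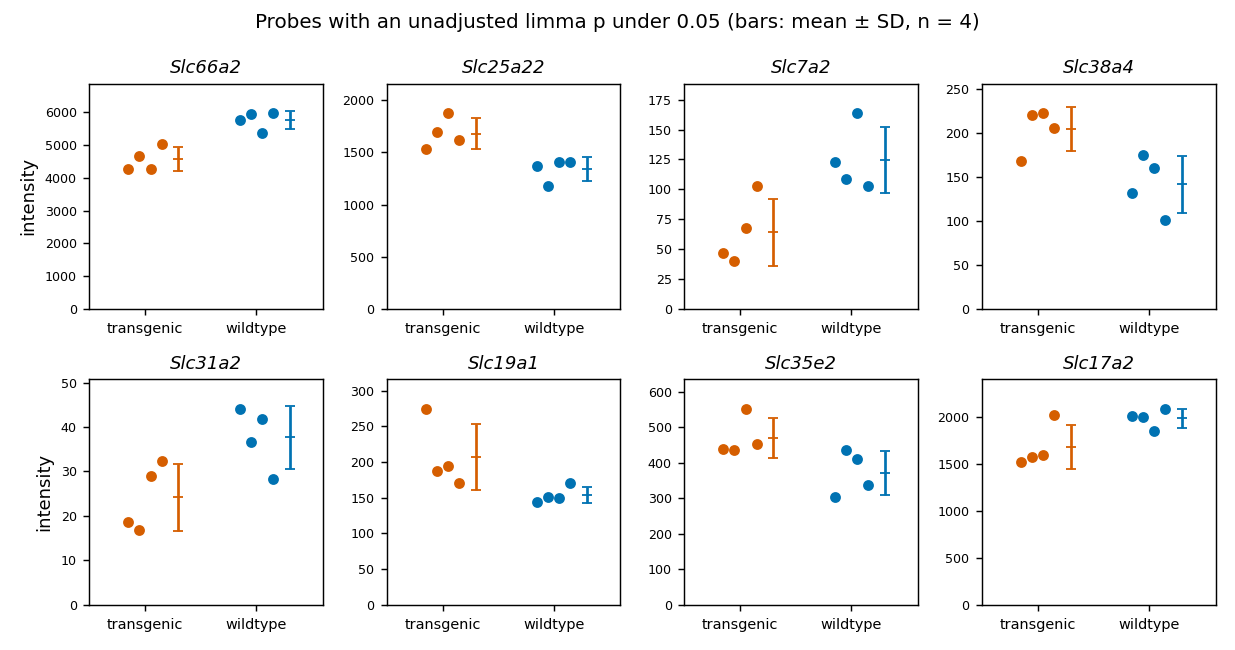
Intensity in each animal at the 8 carrier probes with an unadjusted limma p under 0.05, ordered by p, with mean and SD beside the points. None passed after adjustment, and the groups overlapped at the probes of Slc38a4, Slc31a2 and Slc17a2.

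Slc17a2 was lower in the transgenic mean at both probes. The brighter one read 3199.5, 3033.5, 3464.5 and 3856 units in transgenic animals 1 to 4 and 3974, 3476, 3649 and 3964 units in wildtype animals 1 to 4, a log2 difference of -0.16 ± 0.10 (SE). The dimmer one read 1519, 1576, 1593 and 2023 units in transgenic animals 1 to 4 and 2011, 2003, 1847 and 2088 units in wildtype animals 1 to 4, a log2 difference of -0.25 ± 0.10 (SE), and limma's adjusted p was 0.721. At both probes transgenic animals 1 to 3 lay below all wildtype animals, and transgenic animal 4 lay among them. The sample title of transgenic animal 4 has another stem than those of transgenic animals 1 to 3, and the wildtype animals share a further one, with no statement of what a stem stands for, so that stem and group cannot be told apart. Without that animal the dimmer probe had an unadjusted p of 0.00109 in limma, and in the other fits that left out 1 animal the p reached 0.0956.

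Slc19a1, the reduced folate carrier, read 274.5, 187, 194 and 171 units in transgenic animals 1 to 4 and 143, 151, 149.9 and 170.5 units in wildtype animals 1 to 4. The lowest transgenic and the highest wildtype value were less than 1 unit apart, and transgenic animal 1 was well above the others. The log2 difference was 0.41 ± 0.15 (SE), and limma's adjusted p was 0.687. Without transgenic animal 1 the difference was 0.26. Slc35e2, a member of the Slc35 family, read 438, 437, 552 and 453 units in transgenic animals 1 to 4 and 305, 436, 410.4 and 337 units in wildtype animals 1 to 4, with groups that touched at 436 and 437 units and a log2 difference of 0.35 ± 0.14 (SE) (adjusted p = 0.704 in limma). Slc31a2, a copper carrier, read 18.6, 16.8, 28.9 and 32.3 units in transgenic animals 1 to 4 and 44.1, 36.7, 41.9 and 28.2 units in wildtype animals 1 to 4, close to the floor. Its log2 difference of -0.68 ± 0.25 (SE), for which limma's adjusted p was 0.671, was -0.17 with the same normexp correction.

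Of 7 metal ion carrier probes above 16 on every array 1 had a higher and 6 a lower mean in transgenic livers, and after cyclic loess 3 and 4. All 4 inorganic ion carrier probes above 16 on every array had lower means, which became 2 and 2 after quantile normalization. Among metal ion carriers Slc39a11 had a log2 difference of -0.10, Slc39a14 of -0.03 and Slc11a1 of -0.04 at its bright probe, while Slc30a6, the Golgi zinc carrier, had 0.27. Slc39a10, a zinc carrier, was above 16 units on 2 wildtype arrays and on 0 transgenic arrays, so that the filter fixed its direction. Slc4a2 differed by -0.10. The sodium bicarbonate cotransporter Slc4a4 varied widely between animals, with 17.3, 6.10, 3.60 and 116 units in transgenic animals 1 to 4 and 115, 477, 7.70 and 100.5 units in wildtype animals 1 to 4. Its log2 difference of -1.86 ± 1.09 (SE) had a 95% interval of -4.38 to 0.66 and was -0.88 with normexp correction. Without 1 animal it ranged from -2.72 to -1.09, and its other probe read 2.0 to 37.9 units.

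Among the other roles 0 probes passed either. The fatty acid carrier Slc27a2 had means of 12333 ± 1389 units among transgenic and 12254 ± 1660.0 units among wildtype animals (± SD, 4 per group), with a log2 difference of 0.01 and a 95% interval of -0.28 to 0.31. Slc6a9 had a log2 difference of 0.14, Slc16a10 of -0.08, Slc2a8 of -0.0025 and Slc44a1 of 0.06. Of 8 Slc35 probes above 16 on every array 3 had higher and 5 lower means, which became 4 and 4 with array medians aligned. The log2 difference was -0.08 for Slc35e3, -0.02 for Slc35d1, -0.12 for Slc35c2 and 0.09 for Slc35a4. It was -0.13 for the brighter probe of Slc44a2. For Slc28a2 it was 0.28, and 0.10 with normexp correction. Slc7a6os, not a carrier, had 0.11 and Slc9a3r1 -0.02. Of 4 probes of the Slc2 and Slc5 families above 16 on every array 3 had higher means, and all 4 after quantile normalization. None of the 7 tested probes of bile acid, organic anion and cation carriers exceeded 70.1 units on any array, and at 3 of them all transgenic arrays lay at the floor, which fixed a lower direction. Of these 7 Slco3a1, an organic anion transporter, read -0.90 to 36.7 units at its brighter probe, Slc22a20 -4.30 to 21.2 units and the dimmest array of the brighter Slc22a30 probe -7.20 units, so their log2 differences depend on the floor and are not given.

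Several probes were present for 19 genes. In 3 of these, Slc17a2, Slc38a4 and Slc7a2, all probes gave a signal on every array, in 5 some did and in 11 none. Of 8 genes with at least 2 tested probes, 2 had log2 differences of 1 sign, Slc17a2 and Slc38a4, and 6 had both signs. Among these 6 only Slc7a2 had all its probes above 16 on every array.

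**Figure D5:**
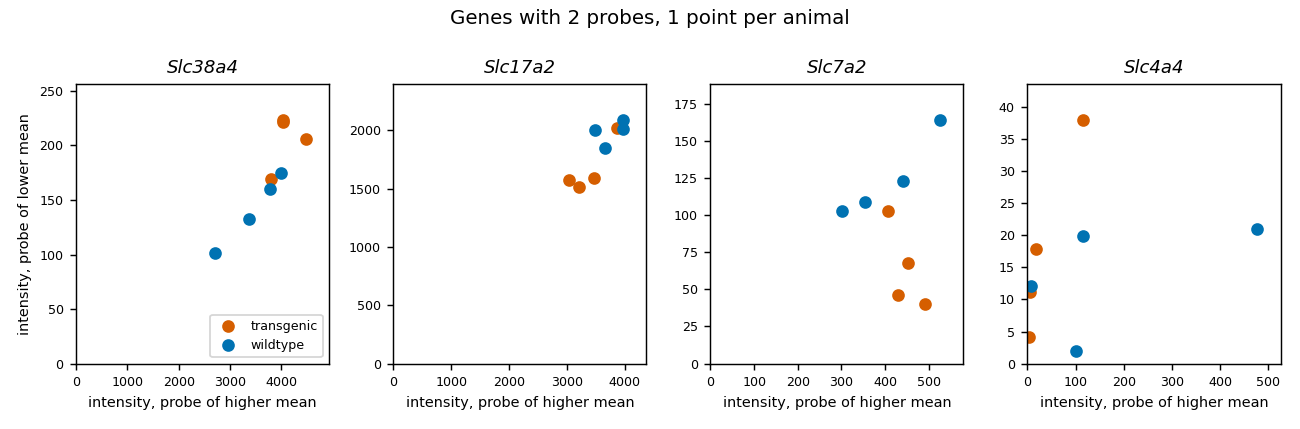
Intensity of the dimmer probe against that of the brighter probe in each animal, for 4 genes with 2 probes; both axes start at 0. The points of Slc38a4 and Slc17a2 lie along a rising line, those of Slc7a2 separate by group at the dimmer probe, and the wildtype animal at 477 units stands apart for Slc4a4.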

How the data were processed

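Values deposited by the authors are a background-subtracted intensity per probe on a linear scale from a 1-colour Illumina bead array, with BeadStudio 1.5.1.3 named in the submitters' processing notes. Between-array scaling and the method of background subtraction are not given in the sources used here. Another deposited table, with 64 value columns that no label ties to an animal, was not used. Groups follow the labels. Animals are numbered in order of deposition, which pairs none across groups. Each animal had its own array, so the spread behind the p-values holds variation between animals and between arrays together. All wildtype animals share a sample title stem that no transgenic animal has, and its meaning is not given. Stem and group therefore cannot be told apart at any probe.

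Log2 values were taken after intensities under 16 had been raised to 16, and probes whose mean log2 value exceeded 4 were kept. The group difference (transgenic minus wildtype) was fitted with limma 3.58.1 (R 4.3.3). Its two-sided moderated p-values were adjusted by Benjamini-Hochberg over 14759 probes, with a threshold of 0.05. A log2 difference near the floor depends on that floor, in size and in sign. With a floor of 8 instead of 16, that of Slc39a10 went from -0.33 to -1.01 and that of Slc7a11 from 0.13 to -0.10. Means and SDs are of unlogged intensities. Exact permutation tests used the log2 values.

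Of 9523 numbers in probe identifiers, 8884 (93.3%) matched a gene in a RefSeq table of assembly GRCm38.p6, and 9 further probes matched by accession. Upstream sequences are RefSeq's.

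Named genes are those past the threshold, the 10 probes of smallest p in each direction, the brightest gene and the gene of smallest p of each role, the 20 genes of highest mean, genes whose probes disagree with 1 at an unadjusted p under 0.05, and lists of carriers of hepatocytes and of other cells. Members, lists and rules were chosen with earlier results of these data known. Alternatives were other scalings, floors, filters and variance models, and leaving out each animal.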

Additional observations from a re-analysis of the deposited data

Results flagged for a closer look

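At 7 of 98 groups of 4 animals examined at named probes, 1 animal lay apart from the others by Dixon's criterion at the 95% level, which compares the gap to the nearest animal with the group's range. Chance gives about 1 in 20 such groups. Wildtype animal 1 read 350.6 units at the bright probe of Slc11a1, and the other wildtype animals 456 to 460.2 units. Transgenic animal 4 stood apart at 3 genes: it read 2023.4 units at the dimmer Slc17a2 probe (others 1519 to 1593), 5524.4 units at Slc38a3 (others 6939 to 7120.1) and 115.7 units at Slc4a4 (others 3.60 to 17.3). Wildtype animal 2 read 1175.8 units at Slc25a22, where the other wildtype animals read 1372 to 1409 units. Transgenic animal 3 read 552.4 units at Slc35e2, against 437 to 453 units, and transgenic animal 1 read 321.7 units at Slc44a1, against 244 to 254 units. At Slc25a22 wildtype animal 2 lay on the far side from the other group, as did transgenic animal 3 at Slc35e2, and at Slc17a2 transgenic animal 4 lay among the wildtype animals.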

How the results depend on the processing

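The count of carrier probes with an adjusted p under 0.05 in limma was 0 under every setting tried: 4 other scalings or background corrections, floors of 8 and 32, 3 other filters, 2 variance models and 8 fits without 1 animal. Over these settings the adjusted p of the 8 probes discussed singly was at least 0.206. The count at an unadjusted p under 0.05 was 6 to 10 over the settings that kept all animals. Leaving out 1 animal gave 5 to 8, with 5 without transgenic animal 3, where Slc17a2, Slc35e2 and Slc38a4 were among those that missed the threshold. The median log2 difference of the tested carriers was -0.0614 to 0 with 1 animal left out, and the lowest came without transgenic animal 1. It was 0.0006 after quantile normalization and 0.0031 with array medians aligned, so its sign depends on the scaling. Of 49 named probes tested, 4 differed in sign under each of the 3 between-array scalings, and up to 5 with 1 animal left out. The 8 probes of small p kept their sign in every setting that kept them, but they had been picked by p on these same arrays. Slc66a2 and Slc25a22 kept an unadjusted limma p under 0.05 in every setting. So did the dimmer Slc7a2 probe wherever it was kept. The number of carrier genes with a signal was 54 at the floor on every array, 46 at the mirrored limit, 45 at a limit of 32 units and 62 on at least 6 of 8 arrays. No paired analysis was possible because the animals were numbered in order of deposition and no label pairs them. Only probes that could be named were described, so carriers without a named probe were not analysed here, and 36 of the 93 tested probes had at least 1 array at the floor. Counting only probes above 16 on every array, and 1 probe per gene, were chosen after the data were seen.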
